A study of Mus musculus with 13 samples.

Results

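CCR4 is the shared receptor of the chemokines CCL17 and CCL22, and the 3 genes Ccr4, Ccl17 and Ccl22 are described here in every library of an mRNA sequencing study of mouse neuroinflammation. The members were taken by gene symbol from a table of 21073 genes, and all 3 were found. The study used mice whose STAT5 proteins cannot form tetramers, called DKI, and its title names CCL17 as a gene regulated by STAT5 in monocytes. It holds 13 libraries, with an estimated 12700000 to 32200000 assigned reads each.

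All mice were on a C57BL/6J background and were immunized with the myelin peptide MOG35-55 in complete Freund's adjuvant, and cells were taken on day 14. For the 3 myeloid groups, DKI mice also received pertussis toxin, which gives experimental autoimmune encephalomyelitis, the standard mouse model for multiple sclerosis. Bone marrow gave 1 library of sorted monocytes, and spinal cord gave 1 library of monocytes and 1 of antigen-presenting cells derived from monocytes (APCs). No WT myeloid library was analysed here, so the myeloid values describe DKI cells only. For the 4 Th17 groups, the series' design text says that no pertussis toxin was given, while a treatment protocol in the labels names it for all samples. Spleen and lymph node cells were cultured with the same peptide in Th17-inducing medium, and after 3 days CD4+ T cells were sorted. These groups were WT (n = 2), DKI (n = 2), DKI expanded without added CCL17 (n = 3) and DKI expanded with added CCL17 (n = 3). The labels do not say how the DKI group differed from the DKI group without CCL17, nor whether libraries of a group came from separate animals or cultures, so the p-values measure the spread between these libraries only.

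CCL17 and CCL22 are small secreted proteins made mainly by dendritic cells and macrophages, where IL-4, GM-CSF and related cytokines are known to induce them. CCR4 is a G protein-coupled receptor of Th2 cells, regulatory T cells, Th17 cells and skin-homing T cells, and ligand binding makes a cell move and removes the receptor from its surface. CCL22 is known to bind CCR4 more tightly than CCL17 does.

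Both ligand genes lie on chromosome 8 of the mouse (GRCm38.p6), on the plus strand, with Cx3cl1 between them. The starts used for the windows below are 64.8 kb apart. Ccl22 (Entrez 20299) spans chr8:94745684-94751388 and Ccl17 (Entrez 20295) spans chr8:94809380-94812038, with 3 exons each. Both ligands carry the adjacent pair of cysteine codons that names the CC chemokines, given in capitals in the first 90 codons shown. Codons are counted in the longest frame from an ATG to a stop in the GENCODE M21 transcript, not from an annotated protein start. In these frames the pair is codons 36 and 37 of 93 in Ccl22, and 43 and 44 of 104 in Ccl17, stop codon included. The Ccl17 frame holds a later ATG before the pair, and which ATG starts the protein was not checked.
Ccl22: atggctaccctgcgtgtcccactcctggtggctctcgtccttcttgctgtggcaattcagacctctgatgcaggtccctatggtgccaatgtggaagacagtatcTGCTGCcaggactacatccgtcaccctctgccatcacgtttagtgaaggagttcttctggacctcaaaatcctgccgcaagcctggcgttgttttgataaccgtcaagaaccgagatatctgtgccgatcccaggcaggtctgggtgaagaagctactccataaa
Ccl17: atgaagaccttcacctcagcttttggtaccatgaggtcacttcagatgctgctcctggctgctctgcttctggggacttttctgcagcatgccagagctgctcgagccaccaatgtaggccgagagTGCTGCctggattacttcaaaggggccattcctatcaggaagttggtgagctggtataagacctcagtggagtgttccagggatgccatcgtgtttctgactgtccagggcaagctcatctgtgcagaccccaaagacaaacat

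The windows around the starts of the ligand genes are shown because both genes were at their highest in the same library. Each runs from 250 bases before to 50 bases after the start that RefSeq gives (GRCm38.p6, plus strand), and capitals mark matches to the motifs searched. The Ccl22 window is chr8:94745434-94745733 and the Ccl17 window is chr8:94810203-94810502. The Ccl17 start used, at 94810453, lies inside the gene span given above, which begins at 94809380.
Ccl22: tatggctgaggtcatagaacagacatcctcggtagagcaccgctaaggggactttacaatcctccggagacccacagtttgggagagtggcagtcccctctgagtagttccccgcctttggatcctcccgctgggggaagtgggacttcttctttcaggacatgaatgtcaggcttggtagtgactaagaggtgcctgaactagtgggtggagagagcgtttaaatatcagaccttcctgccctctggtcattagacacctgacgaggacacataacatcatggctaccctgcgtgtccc
Ccl17: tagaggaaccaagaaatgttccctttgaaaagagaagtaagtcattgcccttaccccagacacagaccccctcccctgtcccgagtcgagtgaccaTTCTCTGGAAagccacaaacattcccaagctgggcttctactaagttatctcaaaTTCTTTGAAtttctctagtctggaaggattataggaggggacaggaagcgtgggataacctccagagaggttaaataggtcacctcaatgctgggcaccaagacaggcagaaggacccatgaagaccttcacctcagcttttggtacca
The motifs were searched on both strands: TTCNNNGAA for STAT5, TTC and GAA with 4 bases between them for STAT6, TGANTCA for AP-1, GAAA repeated after 2 bases for an interferon response element, and GGG and CC with NNTNN between them for NF-kB. In the Ccl17 window, TTCTTTGAA matched the STAT5 letters from 99 to 91 bases before the start, and TTCTCTGGAA matched the STAT6 letters from 154 to 145 bases before it. Of 27025 mouse promoter windows of the same length, 8.47% held the STAT5 letters and 6.99% the STAT6 letters, and the other motifs were in 3.49% to 18.2%. The Ccl22 window held none of the 5 motifs, which says only that these letters are not in this window. The GENCODE transcript of Ccl22 starts further upstream than the RefSeq start used here. Binding was not measured in these data.

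Ccr4 (Entrez 12773) spans chr9:114490316-114505476 on the minus strand, with 2 exons. Its location and its levels were separate from those of the ligands: it was high in the T cell cultures and close to 0 in the myeloid libraries.

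The levels are given as RPKM, read numbers corrected for the length of the gene and the depth of the library, which allows the 3 genes to be compared within a library. In the myeloid libraries the ligands rose by steps. Ccl17 was at 0.121 RPKM in bone marrow monocytes, 1.66 in spinal cord monocytes and 12.8 in spinal cord APCs, from an estimated 2, 23 and 163 reads. Ccl22 was at 0.154, 3.08 and 78.5 RPKM in the same libraries, from 9, 150 and 3498 reads. Both ligands therefore had the same order, with bone marrow monocytes lowest and APCs highest.

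**Figure D1:**
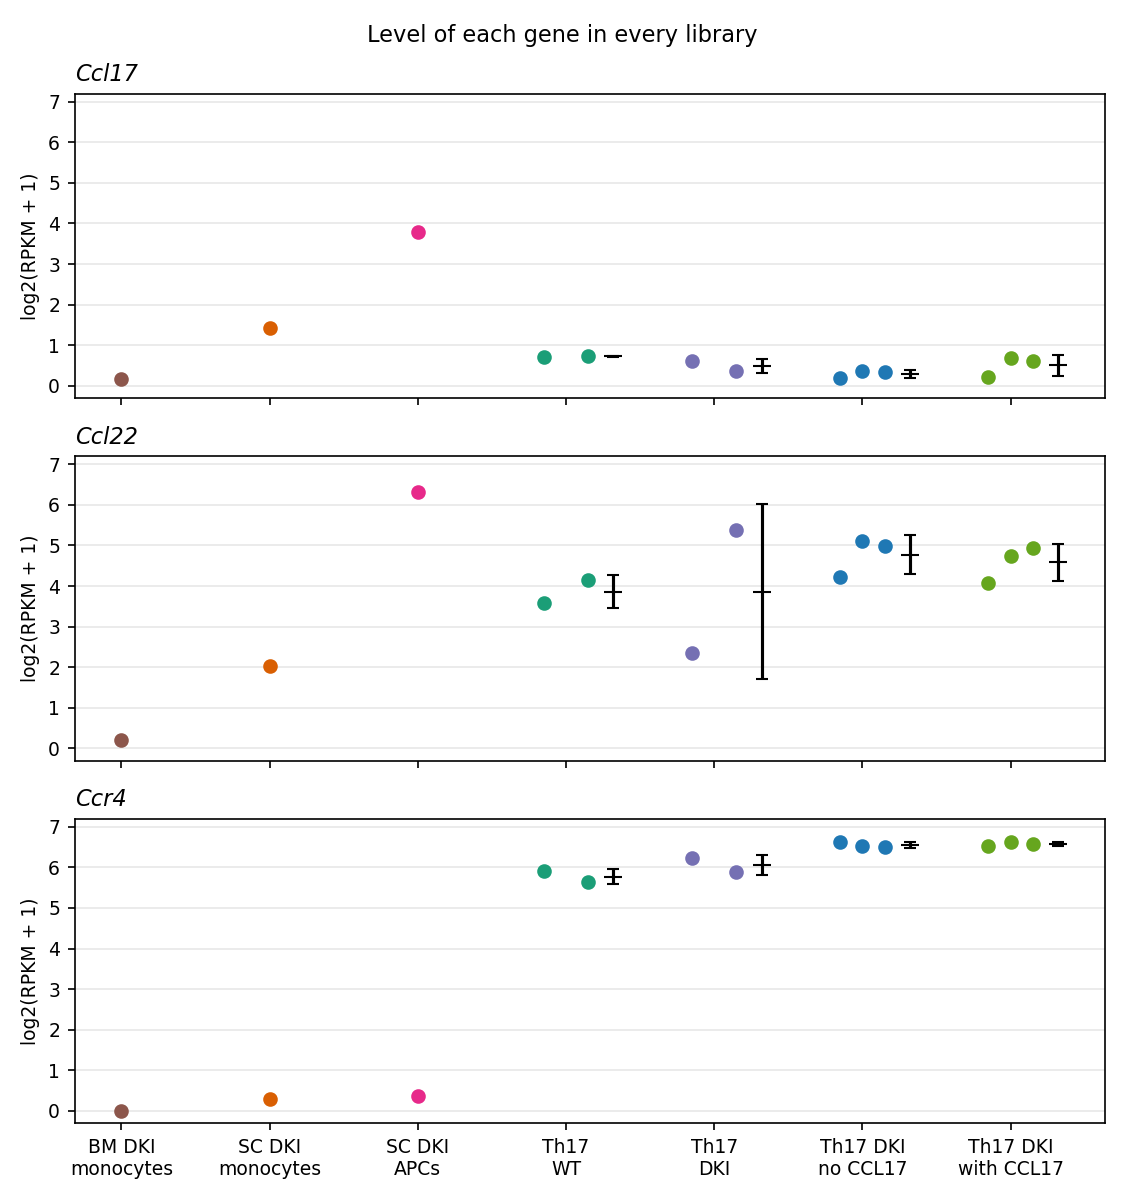
Levels of Ccl17, Ccl22 and Ccr4 as log2(RPKM + 1) in each of the 13 libraries, with 1 point per library and, for the Th17 groups, the mean and SD as a bar to the right. Both ligands are highest in spinal cord APCs, whereas Ccr4 lies between 5.64 and 6.63 in every Th17 library and at or below 0.37 in the myeloid libraries.

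From bone marrow to spinal cord monocytes, the RPKM ratio was 13.8 for Ccl17 (95% interval 3.41 to 121) and 20.0 for Ccl22 (10.3 to 44.6). From spinal cord monocytes to APCs it was 7.72 for Ccl17 (4.97 to 12.5) and 25.5 for Ccl22 (21.6 to 30.1). The intervals of the second step do not overlap, so the APC library differed from the monocyte library by a larger ratio for Ccl22 than for Ccl17. These exact (Clopper-Pearson) intervals use the estimated reads and reflect counting error alone, since each myeloid group is 1 library with no replicate check. In bulk samples such as these, more cells that express a gene cannot be told apart from more RNA per cell.

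The APC step was set against all genes measured. Of 7499 genes with an RPKM of at least 5 in either cord library, 18 (0.24%) were at least 4-fold higher and 6 (0.08%) lower in APCs on the scale of RPKM + 1, and Ccl22 and Ccl17 were among the higher ones. Ccl22 had the largest difference of all of these genes, 4.28 on the log2(RPKM + 1) scale, and Ccl17 was at rank 8 with 2.38. Both passed the minimum only through the APC library, so this count is a description. From bone marrow to cord monocytes, 510 of 8182 genes (6.23%) passed the same limit upwards and 5.13% downwards. None of the 3 members reached an RPKM of 5 in either of those libraries, so none was counted there.

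The proportion of the ligands differed between libraries. The RPKM ratio of Ccl22 to Ccl17 was 1.28 in bone marrow monocytes, 1.85 in cord monocytes and 6.11 in APCs. In the Th17 cultures it ran from 7.61 to 142, where Ccl17 had 1 to 7 reads per library, so these ratios are imprecise. Ccl22 had the higher level in every library. In bone marrow monocytes this rests on 9 and 2 reads, and the counting intervals of Ccl22 (0.071 to 0.293 RPKM) and Ccl17 (0.015 to 0.437) overlap there. These levels do not describe the CCL17 protein that was added to a set of the cultures.

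Ccr4 itself was at 0 RPKM in bone marrow monocytes, 0.227 in cord monocytes and 0.291 in APCs, from 0, 17 and 20 reads. Set against a floor of 3 reads in the bone marrow library, the ratio of Ccr4 in cord monocytes was 6.8, without counting error. The exact 95% interval on the observed 17 and 0 reads, which does not use that floor, had a lower limit of 4.96-fold. Between APCs and cord monocytes the ratio was 1.28 with an interval of 0.637 to 2.60, so a difference was not detectable at this depth. All 10 T cell markers, among them Cd3e and Cd4, had reads in both cord libraries, and their summed RPKM was 24.9 and 26.8 there, against 0.559 in bone marrow and 1975 to 2725 in the Th17 libraries. The part of T cell RNA in the Ccr4 reads of the cord libraries was not tested.

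**Figure D2:**
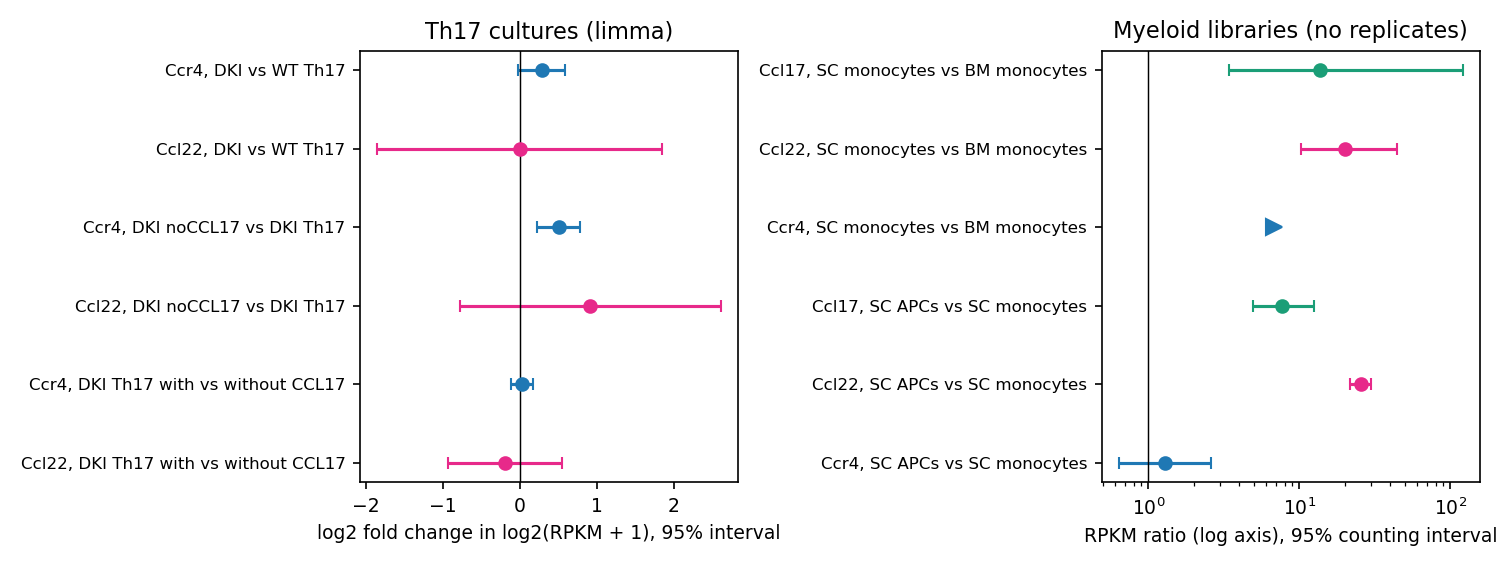
Differences in the members, at left as log2 fold changes between Th17 groups with 95% intervals from limma. At right are RPKM ratios between myeloid libraries on a log axis with 95% counting intervals. The arrowhead is a ratio against a floor of 3 reads, without counting error. Of the Th17 intervals, that of Ccr4 for DKI without CCL17 against DKI lies wholly above 0, from 0.23 to 0.78.

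The genes beside the ligands differed less between the myeloid libraries at the step to APCs. Cx3cl1, a membrane-bound chemokine that lies between Ccl22 and Ccl17, was at 0, 0.40 and 0.75 on the log2(RPKM + 1) scale in the bone marrow, cord monocyte and APC libraries. The other neighbours, up to 3 genes on each side, differed between APCs and cord monocytes by -0.10 for Pllp, -0.10 for Ciapin1, -0.02 for Rspry1, -0.06 for Polr2c, 0.17 for Arl2bp and 0.37 for Coq9. The corresponding log2 differences were 4.28 for Ccl22 and 2.38 for Ccl17.

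**Figure D3:**
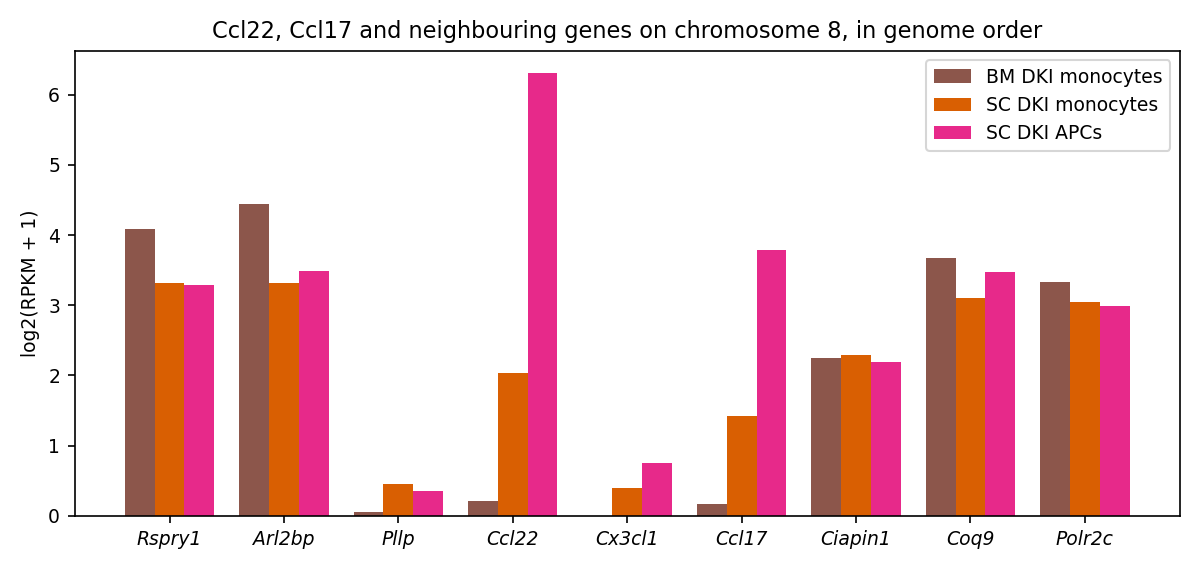
Levels as log2(RPKM + 1) of Ccl22, Ccl17 and the genes next to them on chromosome 8, in genome order, in the 3 myeloid libraries (bars start at 0). The bars of Ccl22 and Ccl17 rise from bone marrow monocytes to APCs, to 6.31 and 3.79, while no neighbour gains more than 0.37 between cord monocytes and APCs.

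Genes known to induce the ligands in myeloid cells were taken as a list of 21. At the step to cord monocytes, 5 of the 20 that reached the minimum were at least 4-fold higher and 0 were lower, where 6.23% of all genes were higher and 5.13% lower. Their median log2 difference was 0.85 against -0.37 over all genes. Among them were Il7r, a receptor chain for the cytokines IL-7 and TSLP (0.08 in bone marrow monocytes, 5.48 in cord monocytes), Cd40, a costimulatory receptor (2.73 and 6.10), and Relb, an NF-kB subunit (2.80 and 5.37). Il7r reached the minimum only through the cord library, so the count of 5 is a description. At the step to APCs, where Ccl22 had its largest ratio, 0 of 20 inducers were 4-fold different. Of all genes, 0.24% were higher and 0.08% lower at this limit, so this count is not set apart from the background. The median of the inducers was -0.16, against 0.03 over all genes. Csf2ra and Csf2rb, the chains of the GM-CSF receptor, were at 7.58 and 7.31 in cord monocytes and at 7.09 and 7.02 in APCs. Stat5a and Stat5b, whose products lack tetramers in these mice, were at 2.95 and 3.75 in cord monocytes and at 3.14 and 3.68 in APCs. Irf4, a transcription factor known to drive the ligand genes in macrophages and dendritic cells, was at 1.70 and 2.38.

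Other CC chemokines had a different course. At the step to cord monocytes, 7 of 9 that reached the minimum were at least 4-fold higher (6.23% of all genes), with a median log2 difference of 4.87 against -0.37 over all genes. Genes that are low in bone marrow reached the minimum only through the cord library, so this count is a description. At the step to APCs, 0 of 10 were 4-fold different, where 0.24% of all genes were higher and 0.08% lower. Of these 10, 8 had a negative difference, with a median of -0.29 against 0.03 over all genes. Ccl5, a chemokine that attracts T cells and monocytes, was first among the 20 CC chemokines in both cord libraries, at 1147 RPKM in monocytes and 1017 in APCs. By RPKM, Ccl22 was at rank 11 in bone marrow monocytes, 10 in cord monocytes and 7 in APCs, and Ccl17 at rank 12, 12 and 11.

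Markers of other cells were measured beside these steps. From bone marrow to cord monocytes, 9 of 12 mature dendritic cell markers at the minimum were at least 4-fold higher (6.23% of all genes). The median of the 12 was 3.20, and the summed RPKM of the 18 listed was 170 and 999. Cd83, Cd274, Traf1, Zmynd15 and Pdcd1lg2 were at 0.35, 1.32, 0.20, 0.02 and 0.03 in bone marrow. They reached the minimum only through the cord library, so this count of the markers is a description. From cord monocytes to APCs, 10 of 16 had a positive and 6 a negative difference, with a median of 0.09 and a summed RPKM of 999 and 982. Of the 16, 3 were at least 4-fold higher (0.24% of all genes). These 3 were Ccr7, the receptor that guides dendritic cells to lymph nodes (1.67 and 5.53), Fscn1, an actin-bundling protein of mature dendritic cells (2.09 and 4.94), and Cacnb3, a calcium channel subunit (0.64 and 2.98). Like the ligands, they reached the minimum only through the APC library, so the count is a description.

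Dendritic cell identity markers were mixed. Of those at the minimum, 3 of 6 had a positive and 3 a negative difference from bone marrow to cord monocytes. From cord monocytes to APCs, 3 of 5 had a positive and 2 a negative one. At this step 0 were 4-fold different, where 0.24% of all genes were higher and 0.08% lower. Itgax was at 0.28, 4.85 and 6.04 in the 3 libraries, Clec10a at 4.01, 2.44 and 3.62, Flt3 at 3.39, 1.66 and 2.15, and Irf8 at 6.80, 7.25 and 6.98.

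Microglia markers were higher at both steps. From bone marrow to cord monocytes, 8 of 8 at the minimum had a positive difference (4 at least 4-fold, against 6.23% of all genes). From cord monocytes to APCs, 9 of 9 did (0 at least 4-fold, against 0.24% of all genes). The medians were 2.48 and 1.48, against -0.37 and 0.03 over all genes. The 4 genes, Tmem119, Olfml3, Siglech and Fcrls, reached the minimum only through the cord library. Sall1 reached it at the second step only through APCs, so these counts are descriptions. The summed RPKM of the 10 listed was 150, 470 and 1156. Neutrophil markers had a summed RPKM of 6731, 746 and 1046. In APCs, 6 of 6 at the minimum had a positive difference (2 at least 4-fold, against 0.24% of all genes), with a median of 1.52. Classical monocyte markers had a summed RPKM of 13520, 6864 and 2999. The 10 myeloid markers were all present in the 3 libraries, at a summed RPKM of 20587 to 23682. The part of these cells in the ligand values was not tested.

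Similarity across all 13 libraries was measured as Pearson's r of log2(RPKM + 1) over 11514 genes and is a description, since the libraries share cell types, depth and origin. Ccl17 was closest to Dcstamp, a membrane protein of dendritic cells and osteoclasts (r = 0.97), followed by Tbc1d16 (0.97), Capn3 (0.96), Adamts1 (0.96), Gal3st4 (0.95), Sall1, a transcription factor of microglia (0.95), Lrrc3 (0.95) and Timp2 (0.95). Ccl22 was closest to Fscn1 (0.98), and the next gene, Snn, was at 0.87. After these came Sema7a (0.85), Epcam (0.85), Fads1 (0.84), Acot13 (0.84), Hsph1 (0.83) and Il1rl2 (0.82). Between the ligands r was 0.34. Ccr4 was closest to Tnfrsf8, which encodes the activated lymphocyte receptor CD30 (r = 0.998), Aebp2 (0.998), Prrg4 (0.997), Sytl3 (0.997), Il2ra, the high-affinity IL-2 receptor chain (0.997), Neu3 (0.996), Wdr43 (0.995) and Ermn (0.995). For Ccr4 these values are set by the gap between Th17 and myeloid libraries. Those of Ccl17 rest mainly on the spinal cord libraries, since Ccl17 was at 0.74 or less on this scale in all others.

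In the Th17 cultures the members had 1 order. In 10 of 10 libraries Ccr4 was above Ccl22, and Ccl22 was above Ccl17, in RPKM. Ccr4 was among the leading receptors: among 18 chemokine receptors it was at rank 3 and 4 in WT, 3 in both DKI libraries and 2 in all 6 libraries of the CCL17 experiment. The receptors above it were Ccr7 and Cxcr6, with Cxcr4 as well in WT replicate 2, and Cxcr6 alone was above it in the CCL17 experiment.

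Ccr4 was at 58.9 and 48.8 RPKM in WT cultures and at 73.9 and 57.7 in DKI cultures. It was at 98.3, 91.1 and 89.5 RPKM in DKI cultures without CCL17 and at 91.7, 97.6 and 94.9 with CCL17. The CCL17 experiment was thus above the other 4 libraries throughout, and within each of these sets the groups overlapped. On the log2(RPKM + 1) scale the means were 5.77 ± 0.19 (SD, n = 2) in WT, 6.05 ± 0.25 (n = 2) in DKI, 6.55 ± 0.07 (n = 3) without CCL17 and 6.58 ± 0.05 (n = 3) with CCL17.

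The difference in Ccr4 between DKI and WT Th17 cells did not pass the test. The log2 fold change of DKI against WT was 0.28 (SE 0.13, 95% interval -0.02 to 0.58), with an adjusted p of 0.317 by limma and Benjamini-Hochberg adjustment over 11078 genes. By the same test 0 of 11078 genes (0%) were called, and 914 (8.25%) were higher and 965 (8.71%) lower at an unadjusted p under 0.05. Of the 3 members, Ccr4 and Ccl22 passed the minimum of 1 RPKM in 2 libraries, and neither was called. Without DKI replicate 2 the test called 580 genes, without WT replicate 2 it called 123 and without DKI replicate 1 it called 4, and Ccr4 was not among them.

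With and without added CCL17, the transcript of its receptor was at levels that overlapped. The log2 fold change of Ccr4 with against without CCL17 was 0.03 (SE 0.06, 95% interval -0.11 to 0.17), with an adjusted p of 0.999 by limma. The test called 0 of 11297 genes (0%), with 239 (2.12%) higher and 172 (1.52%) lower at an unadjusted p under 0.05. With the replicate number as a block 2 genes were called, both higher, and Ccr4 had the same fold change with an adjusted p of 0.846. Of 25 genes of chemokine receptor signalling, such as the G protein Gnai2, the arrestins and the exchange factor Dock2, 0 were called, with a median of 0.00, against -0.01 over all genes.

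Ccr4 was higher in DKI cultures without CCL17 than in the DKI cultures, for which the labels name no added CCL17. The log2 fold change was 0.50 (SE 0.12, 95% interval 0.23 to 0.78), with an adjusted p of 0.0136 by limma, and the 3 libraries lay above both DKI libraries. In this comparison 3823 of 11507 genes (33.2%) were called, of which 1777 (15.4%) were higher and 2046 (17.8%) lower, and 26% of genes lay higher without overlap, so 1 called member of the 2 tested is not set apart from the background. Without DKI replicate 2 the fold change was 0.33 and the adjusted p was 0.0759. The whole cultures differed here. All 10 myeloid markers were called higher in the cultures without CCL17, with a median log2 difference of 4.01, and their summed RPKM was 113 and 191 in DKI and 1108 to 1651 without CCL17. All 8 B cell markers were called higher as well, with a median of 2.02 and a summed RPKM of 7.87 and 17.4 against 65.4 to 103. Of 10 T cell markers, 5 were called lower and 0 higher, with a median of -0.28, the opposite sign to Ccr4. The part of these cells in the Ccr4 difference was not tested.

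Other genes of the receptor's setting were counted in that comparison, where 15.4% of all genes were called higher and 17.8% lower. Of 25 chemokine receptor signalling genes, 2 were called higher and 9 lower, with a median of -0.17 against -0.01 over all genes. Lower were Plcb2, a phospholipase downstream of chemokine receptors (-1.06, SE 0.09), Rasgrp2, an activator of Rap1 (-1.37, SE 0.16), Prex1, an activator of Rac (-0.53, SE 0.08), and Rgs2, a regulator of G protein signalling (-0.74, SE 0.13). Of 13 other chemokine receptors tested, 2 were called higher and 4 lower. Cxcr3, a receptor of Th1 cells, was lower (-1.15, SE 0.18), as was Cxcr1 (-1.70, SE 0.37), whereas Ccr1 (1.14, SE 0.30) and Cxcr2 (1.21, SE 0.25), receptors of myeloid cells and neutrophils, were higher. Among 16 T helper transcription factors 4 were called lower and 0 higher, namely Foxp3 (-1.47, SE 0.22), Ikzf3 (-1.0, SE 0.17), Gata3 (-0.47, SE 0.11) and Stat6 (-0.30, SE 0.10). Foxp3 is the lineage factor of regulatory T cells and Gata3 that of Th2 cells, both of which carry CCR4. Of 6 Th2 markers tested, 1 was called higher and 2 lower, with a median of 0.78: the cytokine gene Il13 was higher (1.90, SE 0.41), and Il1rl1 (-1.08, SE 0.20) and Gata3 were lower. Of 8 regulatory T cell markers 3 were called lower, and Il2ra was called higher (0.46, SE 0.12). Of 9 Th17 markers, 3 were called higher and 0 lower, with a median of 0.37. Higher were Csf2 (1.84, SE 0.26), Il22 (1.56, SE 0.30) and Il17a (2.23, SE 0.74). Of the 9, 8 had a positive and 1 a negative difference.

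Within the 10 Th17 libraries, the genes closest to Ccr4 were Luc7l2 (r = 0.99), Coro2a (0.99), Psat1 (0.99), Shmt2 (0.99) and Raph1 (0.99). Psat1 and Shmt2 are enzymes of serine and one-carbon metabolism. The genes with the most opposite pattern were Rfx2 (-0.997), Crlf3 (-0.99), Rasa3 (-0.99), S1pr1 (-0.99) and Acss1 (-0.99), where S1pr1 encodes the receptor that lets lymphocytes leave lymph nodes. The libraries fall into the CCL17 experiment and the other 4, and these values follow that split. Between Ccr4 and Ccl22 r was 0.21 over these libraries.

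Ccl22 was a sizeable transcript of the sorted CD4+ T cell cultures. It was at 10.9 and 16.8 RPKM in WT, and at 4.07 and 40.6 in DKI. It was at 17.6, 33.8 and 30.7 RPKM in DKI without CCL17 and at 15.7, 25.8 and 29.5 with CCL17. The DKI pair spanned the values of all 8 other Th17 libraries, with a 9.99-fold difference within the pair. The APC library had 1.93 times the level of the highest Th17 library.

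No comparison of Ccl22 between Th17 groups passed the test, and its intervals were wide. The log2 fold change was -0.00 for DKI against WT (SE 0.81, 95% interval -1.85 to 1.85, adjusted p 0.999 by limma). It was 0.91 for DKI without CCL17 against DKI (SE 0.74, -0.78 to 2.61, adjusted p 0.383 by limma). Without DKI replicate 2 this became 2.43 (adjusted p 0.00779 by limma), and without DKI replicate 1 it was -0.61 (adjusted p 0.325 by limma). With against without CCL17 it was -0.20 (SE 0.31, -0.93 to 0.54, adjusted p 0.999 by limma). With the replicate number as a block the SE was 0.07 and the adjusted p 0.289 by limma, and Ccl22 was lower with CCL17 in each of the 3 pairs. The summed RPKM of the myeloid markers was lower in each pair too, at 1108 and 1020, 1610.0 and 1278, and 1651 and 1305 without and with CCL17. All 10 myeloid markers (median -0.24) and 11 of 13 other CC chemokines (median -0.32) had a negative difference, and 0 of either were called. Their part in the Ccl22 values was not tested.

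Other transcripts varied along with Ccl22 between the DKI libraries. Fscn1 was at 1.65 and 4.11 on the log2(RPKM + 1) scale in DKI, where Ccl22 was at 2.34 and 5.38. Across the 10 Th17 libraries Fscn1 ran from 1.65 to 4.14, and its r with Ccl22 was 0.95, behind Hmga1b, Matr3 and Erap1 (0.97 each). This likeness was computed after the values had been seen. Cytokine genes of Th17 cells ran the other way in the DKI pair, with Il17a at 10.38 and 7.57 and Il17f at 8.61 and 5.51. In the CCL17 experiment they did not: replicate 1 was lowest for Ccl22, Il17a and Il17f, both with and without CCL17. Without CCL17, Il17a was at 10.56, 11.52 and 11.52, and Il17f at 7.33, 8.41 and 8.60. The myeloid markers were at 113 and 191 summed RPKM in the DKI pair, higher in replicate 2 as Ccl22 was. They were at 1020 to 1651 in the CCL17 experiment, where Ccl22 was lower than in DKI replicate 2. Lyz2, a lysozyme of myeloid cells, was at 2.10 and 3.46 in DKI replicates 1 and 2 and at 8.40 to 8.85 in the CCL17 experiment. The cells that carried the Ccl22 transcripts in these cultures were not determined.

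**Figure D4:**
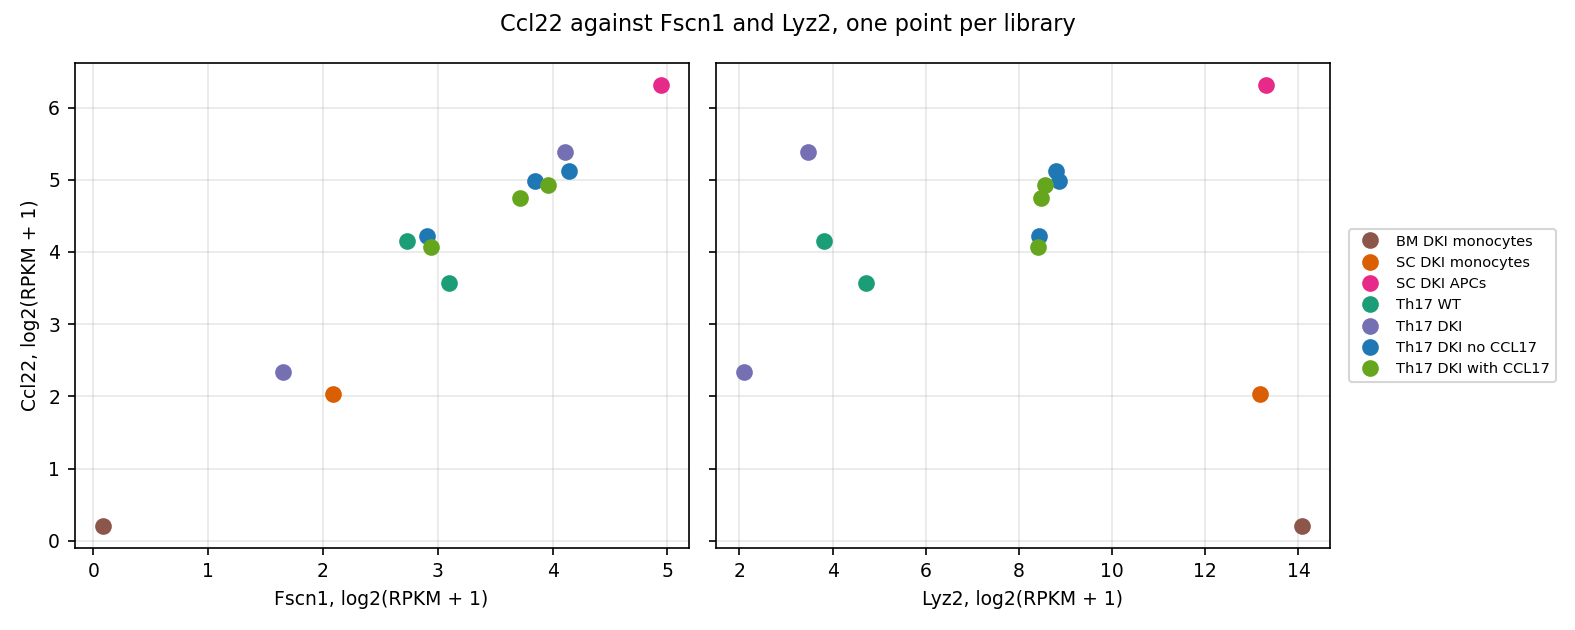
Ccl22 against Fscn1 at left and against Lyz2 at right, all as log2(RPKM + 1), with 1 point per library coloured by group. Ccl22 and Fscn1 lie along a line across myeloid and Th17 libraries (r = 0.98 over 13 libraries). Bone marrow monocytes have the highest Lyz2 (14.08) and the lowest Ccl22 (0.21), and spinal cord APCs have a Lyz2 of 13.30 and the highest Ccl22 (6.31).

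Among the 20 CC chemokines, Ccl22 was at rank 4 and 2 in WT and at rank 5 and 1 in DKI, where it made up 41.6% of the family's RPKM in replicate 2. It was at rank 7 or 8 in the CCL17 experiment. There, 10 of 13 other CC chemokines tested were called higher and 0 lower in DKI without CCL17 than in DKI, with a median of 3.39, where 15.4% of all genes were higher and 17.8% lower. These included Ccl6 (6.24, SE 0.14), Ccl9 (4.79, SE 0.11), Ccl8 (5.92, SE 0.36) and Ccl12 (4.27, SE 0.32), chemokines of monocytes and macrophages, beside the myeloid markers given above. Proteases that trim the ligands were also counted: of 5 genes tested for scavenging and trimming, 2 were called higher and 1 lower, against the same shares of all genes. Dpp4, the peptidase that removes the first residues of CCL22, was lower (-0.54, SE 0.13), and Mmp12, a macrophage protease, was higher (6.28, SE 0.17).

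Ccl17 was near the detection limit in every Th17 culture. It was at 0.638 and 0.667 RPKM in WT and at 0.535 and 0.287 in DKI, from 6, 7, 5 and 3 reads. It was at 0.135, 0.282 and 0.277 RPKM in DKI without CCL17 and at 0.154, 0.615 and 0.539 with CCL17, from 1, 2, 2, 1, 5 and 4 reads. Each group thus rests on a few reads, and 0 of 10 libraries reached 1 RPKM, so Ccl17 was not tested. The APC library had 19.3 times the level of the highest Th17 library.

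Summed over libraries, Ccl17 had 13 reads in WT, or 0.336 per 1000000 assigned reads (exact Poisson 95% interval 0.179 to 0.575), and 8 in DKI, or 0.208 (0.090 to 0.410). It had 5 reads without CCL17, or 0.118 per 1000000 (0.038 to 0.276), and 10 with CCL17, or 0.233 (0.112 to 0.429). The intervals overlap for WT and DKI and for the cultures with and without CCL17. Overlap is not a test of a difference, and the pooled reads leave out the spread between libraries, so no conclusion is drawn. The differences of the means on the log2(RPKM + 1) scale were -0.23 for DKI against WT, -0.19 for DKI without CCL17 against DKI and 0.21 with against without CCL17.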

How the data were processed

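mRNA sequencing libraries were made with a KAPA mRNA kit, per the labels' protocols. The tools Subread and featureCounts and the build mm10 are named in the submitters' processing notes, while their versions and the annotation are not given in the sources used here. Per gene and library, the deposited values are log2 values that the authors made as log2(RPKM + 1). A gene without reads is coded 0.0001, which was read as 0. RPKM was recovered from these deposited values. The APC values come from a column whose name ends in MDC, matched because no other sample or column was left.

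Assigned reads per library were estimated from the step that 1 read makes in low genes, and 70.7% to 75.2% of those genes had values within 0.1 reads of whole counts. With the RefSeq transcript length, Ccl17 lay within 0.15 reads of a whole number in 12 of 12 libraries under 30 reads. The intervals cover counting error only, since PCR copies are not independent molecules.

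Differences between Th17 groups were tested in R 4.3.3 (limma 3.58.1) on log2(RPKM + 1), a scale that understates the change of low genes, with eBayes, a mean-variance trend and Benjamini-Hochberg adjustment, at an adjusted p under 0.05. Genes needed 1 RPKM in 2 compared libraries, or in 3 for added CCL17. Contrasts of DKI against WT and of DKI without CCL17 against DKI came from a fit of all 10 Th17 libraries, and the CCL17 comparison from its own 6. These contrasts share libraries. In the CCL17 experiment the deviations of same-numbered libraries correlated at 0.774, 0.509 and 0.525, while replicates 2 and 3 also correlated across numbers (0.503 and 0.533); the labels do not state a pairing. The procedure was tested on simulated data.

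The members and gene lists were chosen with earlier results of these data known. The named genes are the members, their neighbours in the annotation, the 8 genes closest to each member by Pearson's r (5 at each end for Ccr4 within the Th17 libraries), and up to 4 genes per list with the smallest p or largest difference; markers named beyond these were chosen after their values were seen. Some list members are not reported here by name. Alternatives were another pseudocount, no minimum, other scalings, fits of fewer or more libraries, the replicate block and leaving out each library. Symbols were matched through RefSeq for 20857 identifiers.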

Additional observations from a re-analysis of the deposited data

How the results depend on the processing

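Ccr4 in DKI without CCL17 against DKI kept its call with a pseudocount of 0.1, no minimum, centring (0.47, adjusted p 0.0236 by limma), quantile normalization (0.41, adjusted p 0.0443) and a fit of the 5 libraries compared (adjusted p 0.0477). It lost it with the replicate number as a block (0.53, adjusted p 0.161), where replicate 3 has no partner, and without DKI replicate 2; leaving out a library gave 0.33 to 0.68. The other Ccr4 and Ccl22 results stayed on the same side of the threshold under pseudocount, minimum, scaling and block alternatives. Leaving out a library moved Ccr4 from 0.10 to 0.46 for DKI against WT and from 0.00 to 0.07 for added CCL17. It moved Ccl22 from -1.52 to 1.52, from -0.61 to 2.43 and from -0.47 to 0.062 in the 3 comparisons, in the order DKI against WT, DKI without CCL17 against DKI, and added CCL17, so its sign depended on single libraries. With a pseudocount of 0.1 the Ccl17 differences were -0.60, -0.62 and 0.59 in that order.

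Genes called for DKI against WT numbered 7 with quantile normalization and 0 to 580 without single libraries (highest without DKI replicate 2). For DKI without CCL17 against DKI they numbered 2423 in a fit of the libraries compared, 833 with the replicate block, 4028 with quantile normalization (1448 higher and 2580 lower) and 2513 to 3526 without single libraries (lowest without replicate 3 of the cultures without CCL17). For added CCL17 they numbered 2 with the replicate block and 0 without single libraries. Same-numbered libraries correlated at 0.455 for DKI and WT, and at 0.13 and 0.098 for the DKI sets.

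On the log2(RPKM + 1) scale the step from bone marrow to cord monocytes was 1.25 for Ccl17, 1.82 for Ccl22 and 0.30 for Ccr4. After quantile normalization it was 1.48, 1.99 and 0.59. The log2 RPKM ratios were 3.79, 4.32 and 2.77, the last against a floor of 3 reads. The step to APCs was 4.28 for Ccl22, and 2.10 for Ccl17 and 3.64 for Ccl22 after quantile normalization, against 2.95 and 4.67. The pseudocount shrinks low genes by construction. Ccl17 in Th17 cells and Ccr4 in myeloid cells rest on 20 reads or fewer per library, and myeloid steps on 1 library each.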
